A study of Rattus norvegicus with 2 samples.

Results

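Isolated H3K4me3 peaks are the enriched stretches of rat C6 glioma chromatin that stand alone, with more than 100 kb free of any other called peak on either side. A stretch without a called peak is not shown to lack the mark, since signal below the threshold of the list was not measured here. They were chosen from the authors' peak list by position. A peak on chromosomes 1 to 20 was a member when its gap to the previous peak and its gap to the next peak were both above 100 kb, and the first and last peak of each chromosome could not be members. The rule gave 1417 isolated peaks among 29543 autosomal peaks, or 4.80% (95% Clopper-Pearson interval 4.56 to 5.05%). The list as a whole held 30172 peaks, and the 629 on X were outside the rule.

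The series holds 1 H3K4me3 chromatin immunoprecipitation library and 1 input DNA library of C6, an established line of rat glioma cells that was grown in medium with serum and for which the labels name no treatment. The mark was precipitated with a Millipore antibody, and the title and protocol name a SOLiD instrument for the sequencing. The same protocol also mentions ChIP-chip, which reads out on arrays, and an Illumina preparation kit, a conflict that the labels do not resolve. Input DNA is chromatin that skips the antibody step, and it served as the background of the peak calling, which the authors did with MACS. Neither library has a replicate, so the values below describe this library of this cell line, and there is no replicate error against which to test a difference.

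Trimethylation of lysine 4 on histone H3 is laid down by the SET1 and MLL methyltransferase complexes. It is found mainly at the start sites of active and poised genes, above all at CpG-rich promoters, where the general transcription factor TFIID can bind the mark through its TAF3 subunit. Active promoters tend to carry wide, strong stretches of the mark, while weak and narrow stretches also occur at other open elements, such as enhancers. The list gives no gene names, and gene positions on the rn4 build were not used here, so the isolated peaks are named by their rn4 position, with starts counted from 1. Which of them lie at a promoter was not tested.

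Positions chose the members, and width and score come from the same list, so the comparisons below are descriptions with no test. The score is the authors' own MACS value per peak, which grows with the evidence for enrichment over input and runs from 50 to 3233.06. From its range it was taken as the scaled negative logarithm of a p-value that this program writes, a reading that no header states. Weak and strong below mean a low and a high score, and no fold enrichment per peak was used. The score of exactly 3100 recurs in the list and its rank against slightly higher scores is unsure, so peaks that have it are treated as tied. Peaks are not independent replicates, and each interval is a 95% interval for counting error alone.

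Isolated peaks were weaker and narrower than the other autosomal peaks by their medians. Their median score was 95.0 (interval 89.2 to 103), against 192 (interval 187 to 198) for the 28126 other autosomal peaks, so the median of the others was 2.03 times as high. Widths differed less. The median width was 877 bp (interval 843 to 913) for isolated peaks and 1059 bp (interval 1048 to 1071) for the others. The quartiles of the isolated peaks were 592 and 1489 bp in width and 61.0 and 326 in score. The others had quartiles of 710 and 1770 bp and of 75.9 and 657. Of the isolated peaks, 673 (47.5%) both scored under 100 and were narrower than 1000 bp. Together the isolated peaks covered 1.72 Mb, or 4.16% of the bases in autosomal peaks.

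The weak end of the score range held a larger part of the isolated peaks than of the others. Scores under 100 were given to 736 isolated peaks, 51.9% of them (interval 49.3 to 54.6%), and to 34.3% of the other peaks (interval 33.7 to 34.9%). Directly above the lowest listed score, from 50 to under 60, lay 23.0% of the isolated peaks (interval 20.8 to 25.3%) and 13.6% of the others (interval 13.2 to 14.0%). The order turned at high scores. Scores over 1000 were found for 146 isolated peaks, 10.3% (interval 8.77 to 12.0%), against 15.5% of the others (interval 15.1 to 16.0%). The intervals of both shares overlapped for the score of 3100, which 8 isolated peaks had, 0.565% (interval 0.244 to 1.11%), against 0.789% of the others (interval 0.689 to 0.900%).

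Fewer of the isolated peaks reached the median score of the list (185.56), and those that did had a median score close to that of the others. At or above it were 481 isolated peaks, 33.9% of them (interval 31.5 to 36.5%), against 50.8% of the other peaks (interval 50.2 to 51.3%). The median score of these 481 was 636 (interval 561 to 725). The 14277 other peaks above the same score had a median of 645 (interval 632 to 658), inside that interval. In this upper range the isolated peaks were the wider ones, at a median of 1880 bp (interval 1808 to 2004) against 1719 bp (interval 1702 to 1740). This comparison was chosen after the data were seen. When the list was first cut at the same score and isolation found anew, 1468 peaks were isolated with a median score of 646, against 645 for the others. Selecting by score draws the medians of both groups together by itself, so these values do not measure the difference in the full list. Of those 1468 peaks, 478 were also isolated in the full list.

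The other autosomal peaks are a mixed group, because an enriched stretch that was called as several peaks cannot give an isolated one. They were therefore divided by their nearest neighbour. The 18173 peaks with another peak within 5 kb had a median score of 246 (interval 237 to 257) and a median width of 1086 bp. The 9913 peaks whose nearest peak lay above 5 kb and up to 100 kb away had a median score of 120 (interval 115 to 124) and a median width of 1006 bp (interval 989 to 1024). By median score, isolated peaks were thus much nearer to the second of these groups, which scored a median 1.26 times as high as they did, than to the first, at 2.59 times. Scores under 100 were given to 44.9% of the second group (interval 43.9 to 45.9%) and to 28.5% of the first (interval 27.8 to 29.2%). Scores under 60 were given to 19.9% of the second group (interval 19.2 to 20.7%) and 10.2% of the first, against 23.0% of the isolated peaks. The upper range differed. Scores over 1000 were given to 14.6% of the second group (interval 13.9 to 15.3%) and 16.0% of the first, against 10.3% of the isolated peaks. Widths of 2000 bp or more made up 19.8% and 20.1%, against 15.7%. In both of these shares the second group lay nearer to the first than to the isolated peaks. The remaining 40 other peaks were the first and last of each chromosome.

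**Figure D1:**
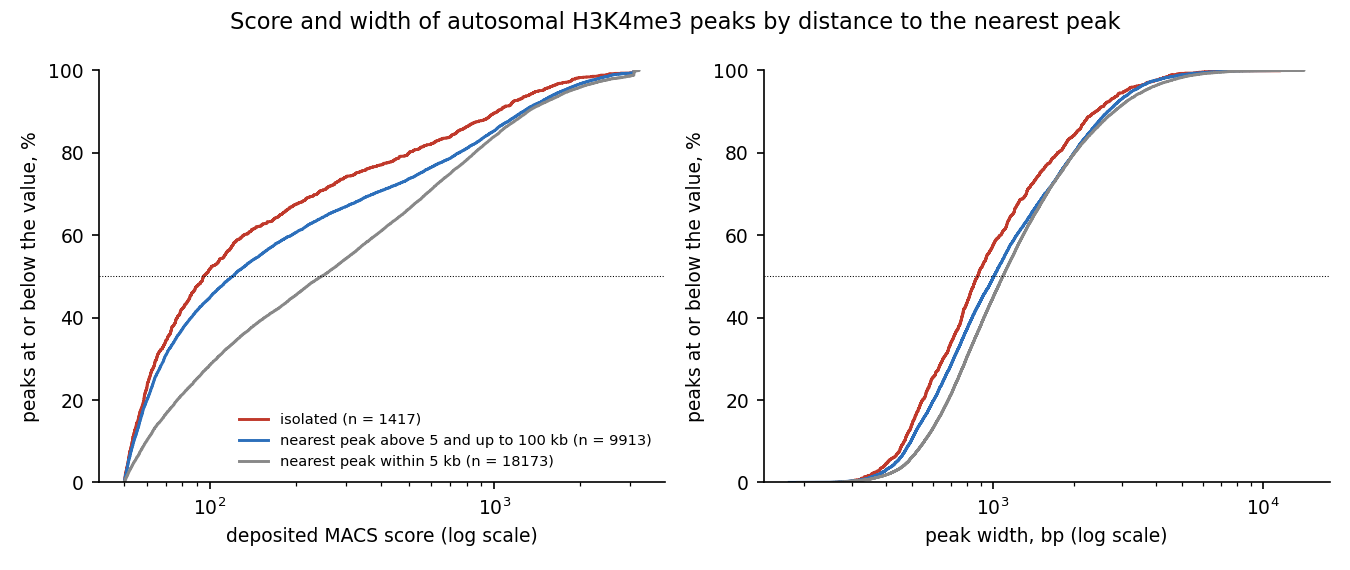
Cumulative share of autosomal peaks (vertical axis, percent) at or below each deposited score (left) and width in bp (right), both on log axes, for the 1417 isolated peaks (red), the 9913 peaks with a nearest peak above 5 and up to 100 kb away (blue) and the 18173 peaks with a neighbour within 5 kb (grey). The red curve crosses the dotted 50% line at a score of 95.0, the blue at 120 and the grey at 246.

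At like width below 2000 bp, isolated peaks scored close to peaks that were 5 to 100 kb from their nearest neighbour. The class from 500 to under 1000 bp was the largest, with 618 isolated peaks or 43.6% of them, and its median score was 70.1 (interval 67.3 to 73.1). Peaks of that width scored 69.4 (interval 68.7 to 70.5) when the nearest peak was 5 to 100 kb away and 99.1 (interval 96.7 to 101) when it was within 5 kb. From 1000 to under 2000 bp the 378 isolated peaks had a median of 230 (interval 200 to 256), with 240 (interval 228 to 253) for peaks 5 to 100 kb from a neighbour inside that interval, and 387 (interval 375 to 398) for peaks within 5 kb above it. The 198 isolated peaks under 500 bp scored a median of 58.0, close to the floor of the list, and the highest of them scored 212.

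Wide isolated peaks were few and strong. The 190 from 2000 to under 4000 bp had a median score of 1018 (interval 936 to 1095), against 1132 (interval 1090 to 1158) for peaks 5 to 100 kb from a neighbour and 1062 (interval 1038 to 1085) for peaks within 5 kb. The median of 1132 lay above the interval of the isolated peaks, and that of 1062 inside it. In the class of 4000 bp or more there were 33 isolated peaks with a median score of 1979 (interval 1683 to 2562), next to 2096 and 2261 in the other groups, both inside that interval. Broad peaks of this size were 2.33% of the isolated peaks (interval 1.61 to 3.26%) and 3.21% of the others (interval 3.01 to 3.42%). Put the other way, 3.53% of the 936 broad autosomal peaks were isolated (interval 2.44 to 4.92%), against 4.80% of all autosomal peaks. Peaks 5 to 100 kb from a neighbour were close to the isolated ones, with 2.39% this broad (interval 2.10 to 2.71%). Of peaks within 5 kb, 3.66% were.

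**Figure D2:**
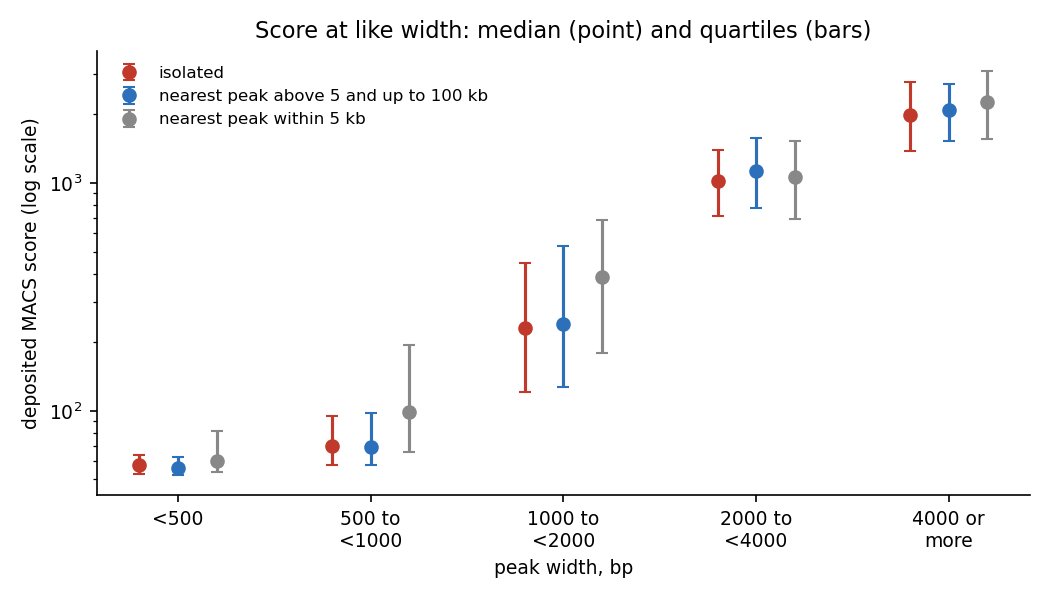
Median deposited score (points, log axis) with its quartiles (bars) in 5 classes of peak width, for isolated peaks (red), peaks with a nearest peak above 5 and up to 100 kb away (blue) and peaks with a neighbour within 5 kb (grey). From 500 to under 1000 bp the red and blue points lie together at 70.1 and 69.4, below the grey one at 99.1, and at 4000 bp or more the 3 groups lie between 1979 and 2261.

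No step was seen at the limit of 100 kb. The median score was 292 for peaks with a neighbour within 1 kb and fell to 118 (interval 111 to 125) at once when the nearest peak was above 1 kb and up to 5 kb away. This median then changed little with distance, at 123 up to 20 kb, 120 up to 50 kb and 110 (interval 101 to 119) up to 100 kb. The 811 isolated peaks with their nearest neighbour up to 200 kb away had a median of 94.0 (interval 87.7 to 107). The 435 up to 500 kb away had 101 (interval 89.0 to 114), and the 171 beyond 500 kb had 88.3 (interval 75.8 to 107). The intervals of these last 3 classes overlap. The upper quartile of the score fell further than the median. It was 486 above 1 kb and up to 5 kb, 565 up to 20 kb, 570 up to 50 kb and 419 up to 100 kb. In the 3 isolated classes it was 354, 320 and 258. The shares scoring over 1000 were 13.5%, 15.8%, 14.6%, 11.4%, 10.4%, 11.0% and 8.19% in the same order. Neither measure fell at every step.

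The median width was lower at large distances, but did not fall at every step. It was 1111 bp within 1 kb of a neighbour, 982.5 bp up to 5 kb and 1021.5 bp up to 20 kb. From 20 to 50 kb it was 1014 bp, and from 50 to 100 kb 949 bp (interval 905 to 991). Among isolated peaks it was 892 bp (interval 847 to 945) up to 200 kb, 871 bp (interval 831 to 941) up to 500 kb and 775 bp (interval 684 to 880) beyond. Across the 1417 isolated peaks, which share 1 library, the distance to the nearest peak had a Spearman rho of -0.02 with score and of -0.06 with width. Width and score had a rho of 0.84 with each other, and they are tied in part by construction, since a wider peak can collect more reads and so a higher score.

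Peaks directly on either side of the limit had overlapping intervals. The 160 isolated peaks with a nearest gap up to 110 kb had a median score of 96.6 (interval 84.4 to 151), and the 182 peaks with one from 90 to 100 kb had 102 (interval 80.3 to 132). The smallest gap of a member, 100129 bp, belonged to a peak on chromosome 4 at 135469223-135470115 with a score of 166. The next were on chromosome 1 at 45034448-45034780 (100153 bp, score 58.6) and chromosome 5 at 115464280-115464670 (100178 bp, score 90.5). Just outside were 2 neighbours on chromosome 8, 99948 bp apart, at 110741295-110742799 and 110842748-110843546. Their scores were 1276 and 69.0. The third, on chromosome 20 at 47817337-47819450, missed the limit with a gap of 99943 bp and scored 1156.

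**Figure D3:**
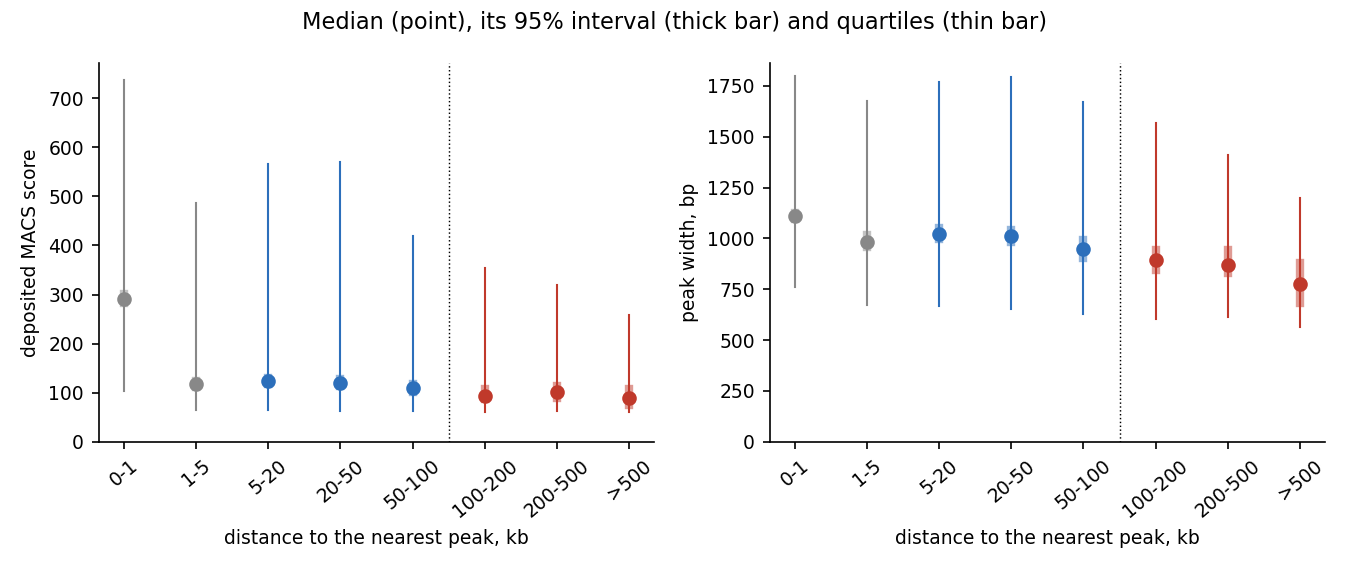
Median deposited score (left) and median width in bp (right) of autosomal peaks in 8 classes of distance to the nearest peak, in kb, with the 95% interval of the median (thick bars) and the quartiles (thin bars). The dotted line marks 100 kb, to the right of which all peaks are isolated. The median score falls from 292 to 118 between the first and second class and lies between 88.3 and 101 in the 3 isolated classes.

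Isolated peaks ranged widely in how alone they stood. The distance to the nearer neighbour had a median of 175 kb, with quartiles of 125 and 300 kb, and the distance to the farther one a median of 456 kb, with quartiles of 252 and 949 kb. The nearer neighbour was more than 500 kb away for 171 peaks and more than 1 Mb away for 54. The farther gap was a median of 2.02 times the nearer one, and more than 5 times as long for 16.1% of the peaks. The longer gap was the one before the peak in 706 cases of 1417.

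The stretches reaching from the previous peak to the next one around isolated peaks added up to 1223 Mb. This made 48.3% of the 2530 Mb spanned by the peaks of the autosomes, although isolated peaks were 4.80% of the peaks. The length of these stretches follows from the rule. Isolated peaks were nevertheless not kept to empty neighbourhoods. Of the 1417, 534 (37.7%) started in a 1 Mb window that held 10 or more peaks, and 179 (12.6%) were the only peak of their window. The same shares are not given for the other peaks. The median window of an isolated peak held 7 peaks and that of another peak held 23, so isolated peaks lay in the sparser windows by this measure.

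**Figure D4:**
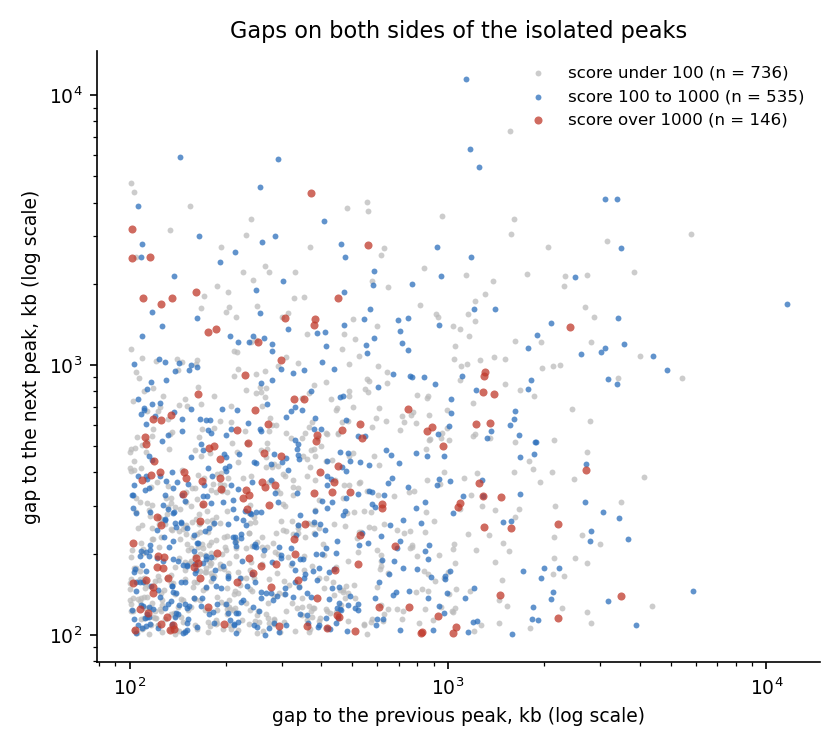
Gap to the next peak against gap to the previous peak, in kb on log axes, for each of the 1417 isolated peaks, coloured by deposited score (under 100 grey, 100 to 1000 blue, over 1000 red). The median distances to the nearer neighbour were 175, 174 and 178 kb, and the greatest were 3070, 3401 and 1386 kb, in the order of the score classes.

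Strong isolated peaks were wider than weak ones, while their distances to the nearer neighbour had overlapping intervals. The 736 peaks scoring under 100 had a median width of 626 bp (interval 595 to 646), and 673 of them were narrower than 1000 bp. The 535 scoring from 100 to 1000 had a median width of 1329 bp (interval 1250 to 1380), and the 146 scoring over 1000 one of 2840 bp (interval 2621 to 3083). No isolated peak scoring over 1000 was narrower than 1192 bp. The median distance to the nearer neighbour was 175 kb (interval 167 to 186) in the weakest class, 174 kb (interval 163 to 191) in the middle one and 178 kb (interval 160 to 218) in the strongest. The greatest such distance was 3070, 3401 and 1386 kb in the same order, over 736, 535 and 146 peaks. The 146 strong peaks held 26.3% of the bases covered by isolated peaks, and the 736 weak ones 28.6%.

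The peaks that flank an isolated peak were of mixed strength. An isolated peak scored higher than both flanking peaks in 377 cases, or 26.6%, and lower than both in 552 cases, or 39.0%. At least 1 flanking peak scored over 1000 for 48 of the 146 strong isolated peaks (32.9%), for 101 of the 535 in the middle class (18.9%) and for 161 of the 736 weak ones (21.9%). Both flanking peaks scored under 100 for 23 of the strong peaks (15.8%), 77 of those in the middle class (14.4%) and 144 of the weak ones (19.6%). The same shares were not computed for the other autosomal peaks, so none of these values is shown to be particular to isolated peaks.

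The strongest isolated peaks were wide. Those 8 with a score of 3100 were from 3228 to 7096 bp wide. The widest of them lay on chromosome 7 at 24530438-24537533, with 1093 kb free of called peaks before it and 307 kb after it. On chromosome 14 a peak at 76408541-76415423 was 6883 bp wide and had gaps of 1310 and 940 kb, and its flanking peaks scored 188 and 65.3. It was the most remote of the 8. The peak at 52183903-52190222 on chromosome 4 (6320 bp) was 821 kb from the previous and 101 kb from the next peak. Chromosome 11 held one at 13170939-13177024 (6086 bp) and chromosome 16 one at 46476993-46482941 (5949 bp), the latter 1471 kb from the previous and 325 kb from the next peak.

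The other peaks with a score of 3100 were on chromosome 7 at 104529639-104535315 (5677 bp) and 807866-811093 (3228 bp) and on chromosome 13 at 43650706-43655474 (4769 bp). The chromosome 7 peak at 104529639 stood between peaks scoring 57.7 and 56.2, and the chromosome 13 peak between peaks scoring 83.2 and 91.0, so both were strong signals among weak ones. A peak on chromosome 2 at 19808022-19813578 (5557 bp, score 3011) and one on chromosome 3 at 137650879-137655496 (4618 bp, score 2784) completed the 10 highest scores.

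Of the 10 widest isolated peaks, 7 were also among the 10 with the highest scores. The widest was the exception. This peak on chromosome 1 at 215573401-215584985 was 11585 bp wide and scored 461, rank 302 among the isolated peaks, and was the only one of the 33 isolated peaks of 4000 bp or more that scored under 500. Its flanking peaks, 132 kb before and 293 kb after it, scored 52.6 and 87.6. The others outside the 10 highest scores were on chromosome 4 at 138685766-138691535 (5770 bp, score 2659), with gaps of 2423 and 1386 kb, and on chromosome 16 at 59312543-59317673 (5131 bp, score 2368).

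The most remote peaks, the 10 with the greatest distance to the nearer neighbour, ran from 52.2 to 520 in score. First came a peak on chromosome 3 at 82245916-82248390, 2475 bp wide with a score of 520, which had no other peak within 3401 kb. It was the strongest of the 10. A peak on chromosome 6 at 15674152-15674919 (768 bp, score 217) had none within 3106 kb, and a peak on chromosome 4 at 112793391-112793863 (473 bp, score 66.4) none within 3070 kb. Chromosome 3 held 2 others, at 22144693-22145163 (471 bp, score 52.2, nearest peak 2887 kb away) and 72603416-72604074 (659 bp, score 59.2, nearest peak 2217 kb away).

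The remaining 5 lay from 2058 to 2719 kb from their nearest peak. They were on chromosome 2 at 163724033-163724807 (score 139), chromosome 15 at 73502939-73503757 (score 88.5), chromosome 20 at 52448065-52448571 (score 63.8), chromosome 5 at 111303541-111305562 (score 432) and chromosome 13 at 15043699-15044131 (score 53.8). Of the 10 scores, 6 were under 100, near the 51.9% of all isolated peaks.

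By the rule, the neighbour of an isolated peak has a gap above 100 kb on at least 1 side, and among such autosomal peaks away from the chromosome ends 1417 were isolated and 6533 had the wide gap on 1 side only. The isolated peaks formed 925 runs along the chromosomes, 606 of them of a single peak, and 811 peaks (57.2%) had another isolated peak as a neighbour on at least 1 side. This share counts either of 2 neighbours, so it cannot be set directly against the share of isolated peaks among peaks with a wide gap. There were 222 runs of 2, 52 of 3, 26 of 4, 11 of 5, 5 of 6 and 2 of 7. The median score was 96.5 (interval 89.2 to 108) in runs of 2 or more and 93.1 (interval 85.0 to 105) for lone ones, and the median widths were 875 bp (interval 832 to 928) and 879 bp (interval 820 to 939).

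The longest run held 8 peaks on chromosome 18, in a stretch of 3.73 Mb between flanking peaks that ended at 36723700 and began after 40450905. Its peaks were of mixed strength, from 51.5 to 1262. The first, at 37001351-37002481, scored 321 and was followed by peaks at 37431450-37432140 and 37810850-37811625 with scores of 108 and 64.7. The next 3 were wider and scored higher, at 38049139-38051976 (2838 bp, score 1088), 38382794-38386778 (3985 bp, score 1262) and 38586372-38588406 (2035 bp, score 544). The last pair, at 39003424-39003985 and 39559422-39560010, scored 51.5 and 86.7.

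Called as several peaks, an isolated stretch of the mark is not a member, and such stretches were stronger. Joining peaks up to 1 kb apart gave 1829 autosomal regions with more than 100 kb to both neighbours. All 1417 isolated peaks were among them, and the other 412 regions held from 2 to 6 peaks. These regions of several peaks made up 22.5% of the isolated regions (interval 20.6 to 24.5%) and 29.2% of the 19411 other regions (interval 28.5 to 29.8%). In these the highest-scoring peak had a median of 719 (interval 651 to 818) where isolated and 755 (interval 730 to 778) elsewhere, and their median widths were 3337 bp (interval 3147 to 3626) and 3331 bp (interval 3273 to 3387). Taking the best of several peaks raises a score by itself in both groups. Single-peak regions scored a median of 95.0 where isolated and 120 (interval 115 to 123) elsewhere.

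The share of peaks that were isolated differed between chromosomes. It was highest on chromosome 2, where 161 of 1925 peaks were isolated, 8.36% (interval 7.17 to 9.69%), and on chromosome 15, with 65 of 873 or 7.45% (interval 5.79 to 9.39%). Chromosomes 18 and 17 followed with 6.75% and 6.67%. The lowest shares were 1.61% on chromosome 10 (40 of 2486, interval 1.15 to 2.18%), 1.82% on chromosome 12 (22 of 1211, interval 1.14 to 2.74%) and 2.27% on chromosome 20 (21 of 925, interval 1.41 to 3.45%). Across the 20 autosomes the share had a Spearman rho of -0.85 with the number of peaks per Mb of the span. Crowding leaves fewer wide gaps, so these quantities are tied by construction.

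Counted per length, the chromosomes lay closer together. Over all autosomes there were 0.56 isolated peaks per Mb between the first and last peak. The number ran from 0.36 per Mb on chromosome 10 and 0.38 on chromosome 20 to 0.73 on chromosome 8 and 0.72 on chromosome 17. Chromosome 12, the densest in peaks at 26.0 per Mb, had 0.47 isolated peaks per Mb, and chromosome 2, the sparsest at 7.47 per Mb, had 0.62.

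Taken by chromosome, the median score of isolated peaks was below that of the other peaks on 20 of 20 autosomes, and their median width on 19 of 20. On chromosomes 3, 6, 7, 11 and 13, the median score of the other peaks lay inside the interval of the isolated ones. Chromosome 7 was the exception in width, with 1080 bp (interval 766 to 1289) for isolated peaks against 1065 bp. The highest median scores of isolated peaks were 140 on chromosome 6 (interval 78.1 to 260) and 137 on chromosome 2 (interval 99.9 to 195). The lowest were 69.1 on chromosome 12 (interval 61.6 to 121) and 72.4 on chromosome 15 (interval 65.1 to 88.8). Chromosomes 2 and 15, alike in peak density, thus stood near opposite ends, and their intervals did not overlap. The pair comes from near the ends of 20 medians, so the lack of overlap is no test of a difference. Scores over 1000 were found for 21 isolated peaks on chromosome 2 and 3 on chromosome 15.

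**Figure D5:**
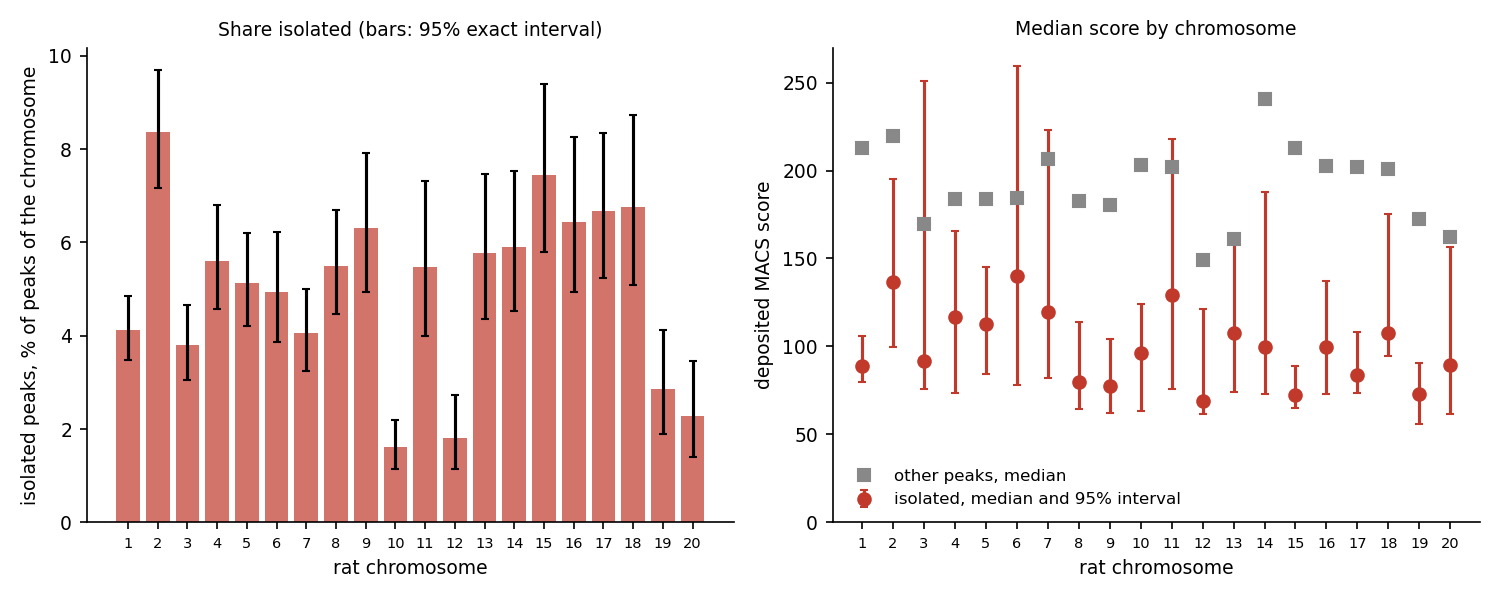
Left, isolated peaks as a percentage of the peaks of each rat autosome, with 95% exact binomial intervals. Right, median deposited score of the isolated peaks with its 95% interval (red) and median score of the other peaks (grey squares) by chromosome. The share runs from 1.61% on chromosome 10 to 8.36% on chromosome 2, and the red median lies below the grey one on 20 of 20 chromosomes.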

How the data were processed

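H3K4me3 was measured in C6 cells by ChIP-seq with 1 library, against 1 input library. The authors called peaks with MACS, per the file header, on the build rn4, per the submitters' processing notes. The number of reads, like the aligner and the settings and version of MACS, is not given in the sources used here, and the depth is therefore unknown. The 1 unit used is the deposited score per peak, as the authors listed it.

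Peaks were sorted by chromosome and start, and a gap was the number of bases between the end of a peak and the start of the next. Shares have exact Clopper-Pearson intervals, and medians have exact binomial order-statistic intervals, both at 95%. Python 3.11.15, NumPy 2.4.6, pandas 2.3.3, SciPy 1.17.1 and matplotlib 3.10.9 were used. The code was tested on simulated lists that held a known number of isolated peaks and of pairs.

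The members, measures and alternatives were chosen with earlier results of these data known. Named peaks are the 10 highest in score, the 10 widest and the 10 farthest from their nearest neighbour (the wider peak first where these tied), the 3 on either side of the limit, and the longest run. The alternatives were limits of 50 and 200 kb, peaks joined across gaps up to 1 kb, a cut at the median score, a minimum width of 500 bp and the inclusion of X. No sequence was read, because no genome of the build rn4 was used here.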

Additional observations from a re-analysis of the deposited data

How the results depend on the processing

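Isolated peaks had the lower median score and width under 5 of the 6 alternatives fixed at the start, and the larger share of scores under 100 in all 5 where it was computed. The exception was the list cut at the median score, where isolated peaks had a median score of 646.4 and a width of 1880 bp against 644.7 and 1706 bp, after a selection by score that narrows the difference in score by construction. No peak scores under 100 there, so that share was not computed. With isolation taken from the full list before the same cut, an alternative chosen after seeing the data, the medians were 636.1 and 1880 bp against 645.1 and 1719 bp. A limit of 50 kb gave 3031 isolated peaks and one of 200 kb 606. At 50 kb the other peaks had a median score of 200.7 and 33.5% scored under 100. Joining peaks up to 1 kb apart gave median scores of 151.9 and 238.5, widths of 1156 and 1499 bp and shares under 100 of 41.0 and 33.5%, isolated regions first. Peaks of at least 500 bp gave 116.8 and 230.0, 973 and 1134 bp, and 45.0 and 29.6%. Of the 20 other values, those with an interval in the main analysis stayed within it. The numbers of isolated peaks among them have no interval and ran from 1387 to 1829, against 1417. The highest, 1829, came from joining peaks. No paired analysis was possible because 1 ChIP library was analysed. The number of reads is unknown, so how many of the isolated peaks scoring just above 50 would be called again is not known.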

Other observations

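The X chromosome, outside the rule, showed the opposite order in median score and width. With the same limit of 100 kb, 73 of its 629 peaks were isolated, 11.6% (Clopper-Pearson interval 9.21 to 14.4%). Their median score was 344 (interval 190 to 395), against 190 (interval 164 to 238) for the 556 other peaks of X. Their median width was 1186 bp (interval 981 to 1419) against 930 bp (interval 846 to 994). Scores under 100 were given to 20.5% of the isolated peaks of X (interval 12.0 to 31.6%) and to 28.2% of its other peaks (interval 24.5 to 32.2%), which overlap, and to 51.9% of the autosomal isolated peaks. The shares scoring over 1000 had overlapping intervals, with 5 isolated peaks of X (6.85%, interval 2.26 to 15.3%) and 32 of its other peaks (5.76%, interval 3.97 to 8.03%). The highest score on X was 1117 among isolated peaks and 2127 among the others. The nearer neighbour was a median of 187 kb away, close to the 175 kb of the autosomal isolated peaks. On 20 of 20 autosomes isolated peaks had the lower median score. The comparison was made after the values were seen, the intervals of score and of width within X overlap, and the difference between X and the autosomes was not tested.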
